A study of Homo sapiens with 2 samples.

Results

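Small nucleolar RNA (snoRNA) host genes are transcribed into spliced RNAs whose introns hold snoRNAs. The genes described here are 9 noncoding hosts, GAS5, SNHG1, SNHG5, SNHG6, SNHG7, SNHG8, SNHG12, SNHG15 and ZFAS1. They were chosen by symbol in the gene expression table, under a rule that already described many of them as having pyrimidine starts, and all 9 were found among its 16424 entries. Each had a mean level of at least 1 CPM, the number of CAGE tags scaled to a common library total, over both libraries, as did 13724 entries in all, which are called the genes tested.

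The cells were PLC/PRF/5, an established human hepatoma line. Both dishes were grown in the same way and collected after 6 h. The non-treated dish received no M2BPGi (0 µg/ml). The M2BPGi-treated dish received 3 µg/ml M2BPGi, a glycosylated form of Mac-2-binding protein that is used as a serum marker of liver fibrosis. Cap analysis of gene expression (CAGE), which counts the capped 5′ ends of RNAs, gave 1 library per condition, so no difference has a replicate check and no test of the treatment was possible. A single cell line, dose and time limit what the comparison can show. The CPM steps corresponded to 24040209 tags in the non-treated library and 24862941 tags in the M2BPGi-treated library. Intervals below are exact 95% Clopper-Pearson intervals from these tags and cover counting error only.

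The introns of these genes are cut out and trimmed to box C/D snoRNAs, which guide 2′-O-methylation, or box H/ACA snoRNAs, which guide pseudouridylation. Many host RNAs begin with a 5′ terminal oligopyrimidine (TOP) tract, a cytidine followed by pyrimidines, as do the mRNAs of ribosomal proteins, whose translation depends on mTOR. The spliced host RNA carries short open reading frames and is often degraded through nonsense-mediated decay while it is translated, which is why GAS5 is known to accumulate in growth-arrested or mTOR-inhibited cells.

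Since CAGE reads the 5′ end, the sequence around the annotated starts is shown first. The set of RefSeq (GRCh38) promoter windows used here, of 300 bases each, covered 7 of the 9 genes and held none for SNHG6 and SNHG15. The 6 windows below run from 40 bases before the annotated start to 20 bases from it on. Capitals mark TATAA where it lay 20 to 40 bases before the start, and the longest run of C and T that opened with C, had at least 5 bases and began within 20 bases of the start.
ZFAS1 (chr20:49278602-49278661, plus strand): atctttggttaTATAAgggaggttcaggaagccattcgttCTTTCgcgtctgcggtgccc
SNHG5 (chr6:85678714-85678773, minus strand): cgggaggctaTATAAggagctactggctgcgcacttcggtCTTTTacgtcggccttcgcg
SNHG8 (chr4:118278722-118278781, plus strand): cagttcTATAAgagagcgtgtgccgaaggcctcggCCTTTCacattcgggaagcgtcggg
SNHG12 (chr1:28581854-28581913, minus strand): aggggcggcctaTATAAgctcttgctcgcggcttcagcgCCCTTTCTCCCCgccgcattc
SNHG7 (chr9:136728165-136728224, minus strand): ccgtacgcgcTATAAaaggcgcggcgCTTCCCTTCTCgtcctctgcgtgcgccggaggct
SNHG1 (chr11:62855866-62855925, minus strand): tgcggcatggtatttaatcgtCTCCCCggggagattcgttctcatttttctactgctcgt
The deposited table held no tag positions, so which of these starts was used could not be read from it. Coordinates are those of GRCh38, whereas the tags were mapped to hg19 per the submitters' processing notes.

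In ZFAS1 and SNHG5 a run of 5 pyrimidines opened exactly at the annotated start. Another run of that length in SNHG5, ccttc, lay further downstream and is not marked. SNHG12 carried a run of 12 bases, SNHG7 of 11, and SNHG8 and SNHG1 of 6 bases each. The runs of SNHG12 and SNHG8 opened at -1 and -5 relative to the annotated start and reached it. Those of SNHG7 and SNHG1 opened at -14 and -19 and ended before the start, so an RNA from that start would not hold them. Since the rule of choice names pyrimidine starts, the shares of runs here and below describe the members and test nothing. Such a run was present in 6 of the 7 windows, beside 49.8% of 35116 windows of all genes, 68.8% of 16 windows of other noncoding snoRNA hosts and 86.9% of 84 windows of cytosolic ribosomal protein genes. The remaining window, that of GAS5, held neither such a run nor TATAA before the start, and its RefSeq start lay upstream of every GENCODE v29 start of that gene. TATAA, searched on the coding strand in a range chosen after the sequences were seen, stood before the start in 5 of 7 windows, those of ZFAS1, SNHG5, SNHG7, SNHG8 and SNHG12. It stood there in 3.91% of all windows, in 10.7% of those of ribosomal protein genes and in 6.25% of those of other noncoding snoRNA hosts. TATAAA on either strand anywhere in the 300 bases was found in 2 of 7 windows (11.5% of all), and CACGTG in 1 of 7, that of SNHG7 (7.26% of all). A match is a description of letters and no evidence of binding.

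Counted over all GENCODE v29 transcripts, 7 of the 9 genes had at least 1 transcript that opened with C and at least 4 further pyrimidines. The share was 16.2% among 13271 genes tested with a GENCODE entry, 38.9% among 18 other noncoding snoRNA hosts and 79.8% among 84 entries of ribosomal protein genes. Since genes with many transcripts have more chances of a match, the share was also taken per transcript. It was 16.4% of 128 transcripts for the 9 genes, 2.63% for the genes tested, 8.64% for the other noncoding hosts and 20.6% for ribosomal protein genes. SNHG7 and SNHG15 had none, and in SNHG7 the longest run at the start of the 3 of 4 transcripts near its main start was 4 pyrimidines. For SNHG1 the count rested on 1 of 25 transcripts, which began downstream of the RefSeq start.

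ZFAS1 and SNHG5 were the most abundant of the 9 genes. CAGE levels do not scale with transcript length, so CPM can be set side by side between genes. ZFAS1 (ENSG00000177410), which hosts SNORD12, SNORD12B and SNORD12C and starts head to head with ZNFX1, stood at 424 CPM in the non-treated and 582 CPM in the M2BPGi-treated library. Its log2 ratio, taken here and below as M2BPGi-treated over non-treated after adding 1 CPM to both levels, was 0.46 (interval of the tag ratio 0.42 to 0.49), the highest among the 9 genes. SNHG5 (ENSG00000203875), the host of SNORD50A and SNORD50B, stood at 455 CPM in the non-treated and 511 CPM in the M2BPGi-treated library, with a log2 ratio of 0.17 (0.13 to 0.21). SNHG5 was therefore the most abundant member without treatment and ZFAS1 the most abundant with it, and in both libraries their counting intervals did not overlap.

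**Figure D1:**
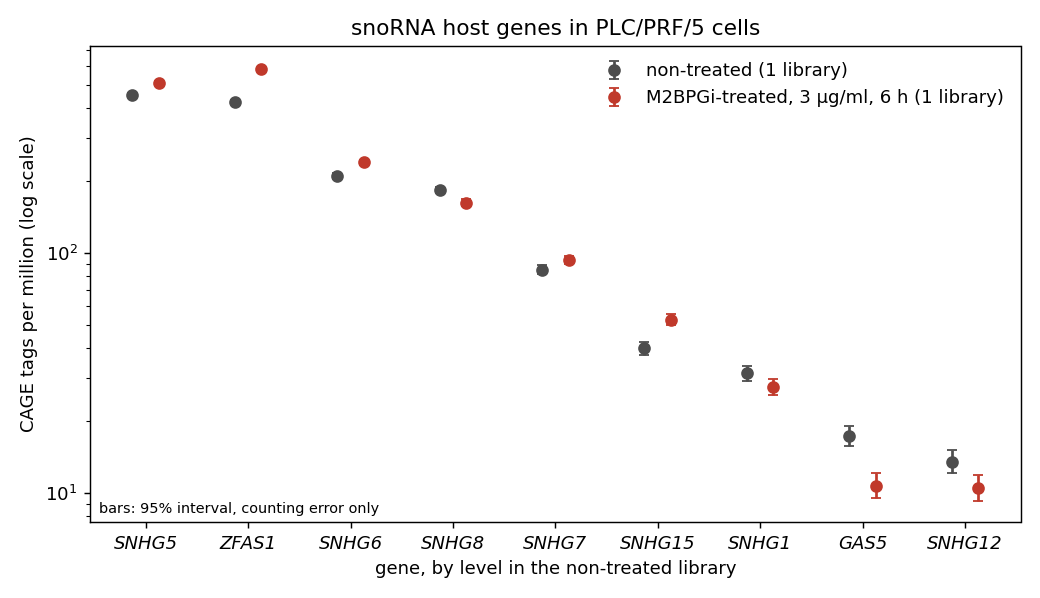
CAGE level of each snoRNA host gene (CPM, log axis) in the non-treated (grey) and M2BPGi-treated (red) library, 1 library each; bars are 95% intervals for counting error only. SNHG5 and ZFAS1 lie at 424 CPM or more in both libraries, and GAS5 and SNHG12 at 17.35 CPM or less.

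The remaining box C/D hosts were SNHG6, SNHG1 and GAS5. SNHG6 (ENSG00000245910), a host of SNORD87, had 209.5 CPM in the non-treated and 238 CPM in the M2BPGi-treated library, a log2 ratio of 0.18 (0.13 to 0.24). SNHG1 (ENSG00000255717), which carries 8 listed box C/D snoRNAs from SNORD22 to SNORD31, had 31.5 CPM in the non-treated and 27.7 CPM in the M2BPGi-treated library, a log2 ratio of -0.18 (-0.34 to -0.04). SNHG6 was thus higher after treatment by a margin larger than its counting error. For SNHG1 the lower level passed its counting error only with the scaling as deposited, since with the libraries rescaled to the median of the genes tested its log2 ratio was -0.13 with an interval that included 0 (-0.29 to 0.02).

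GAS5 (ENSG00000234741), the growth arrest-specific transcript, had the lowest log2 ratio of the 9 genes. Its level was 17.35 CPM in the non-treated library (15.7 to 19.1) and 10.7 CPM in the M2BPGi-treated library (9.49 to 12.1), from 417 and 267 tags. The non-treated level was 1.62 times the M2BPGi-treated level, and the log2 ratio was -0.64 (-0.92 to -0.47). GAS5 was the single member past 1.5-fold in either direction, and with 5 CPM added in place of 1 CPM its log2 ratio of -0.51 no longer passed 1.5-fold. Of the genes tested, 2.87% had a lower log2 ratio than GAS5.

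Among the box H/ACA hosts, SNHG8 (ENSG00000269893), which holds SNORA24, had 183 CPM in the non-treated and 162 CPM in the M2BPGi-treated library, a log2 ratio of -0.18 (-0.24 to -0.12). SNHG7 (ENSG00000233016) had 85.2 CPM in the non-treated and 93.4 CPM in the M2BPGi-treated library, a log2 ratio of 0.13 (0.05 to 0.22). These hosts of intermediate level lay on opposite sides of 0, by small amounts. SNHG15 (ENSG00000232956), a host of SNORA9, had 40.1 CPM in the non-treated and 52.7 CPM in the M2BPGi-treated library, a log2 ratio of 0.39 (0.27 to 0.52). SNHG12 (ENSG00000197989), which carries SNORA16A, SNORA44 and SNORA61 and also the box C/D snoRNA SNORD99, had 13.5 CPM in the non-treated and 10.5 CPM in the M2BPGi-treated library, a log2 ratio of -0.33 (-0.60 to -0.12). SNHG15 was hence next to ZFAS1 at the upper end, and SNHG12 next to GAS5 at the lower end.

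The order of levels was SNHG5, ZFAS1, SNHG6, SNHG8, SNHG7, SNHG15, SNHG1, GAS5 and SNHG12 in the non-treated library, and neighbours in that order did not overlap in their counting intervals. With M2BPGi the order differed only in that ZFAS1 came before SNHG5. GAS5 and SNHG12, at 10.7 and 10.5 CPM, then overlapped in their intervals and could not be ranked. The highest level was 33.7 times the lowest in the non-treated library and 55.2 times the lowest in the M2BPGi-treated library.

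Over the group, 5 of the 9 genes were higher in the M2BPGi-treated library (42.9% of the 13724 genes tested) and 4 were lower (57.0% of the genes tested). None was at least 1.5-fold higher (1.60% of the genes tested) and 1, GAS5, was at least 1.5-fold lower (4.04%). With the scaling as deposited all 9 intervals excluded 0, 5 above it (22.8% of the genes tested) and 4 below it (31.5%). With the rescaled libraries 5 lay above it (27.7%) and 3 below it (26.0%), and that of SNHG1 included it. These intervals compare the libraries and not the conditions, and they are narrow for abundant genes whatever the treatment. The median log2 ratio of the 9 genes was 0.13, beside -0.05 over all genes tested. Their standard deviation of 0.36 was close to the 0.35 over all genes tested. No member lay outside the central 95% of all genes tested, from -0.67 to 0.52. Against genes of like level, compared below, GAS5 lay outside that central share.

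**Figure D2:**
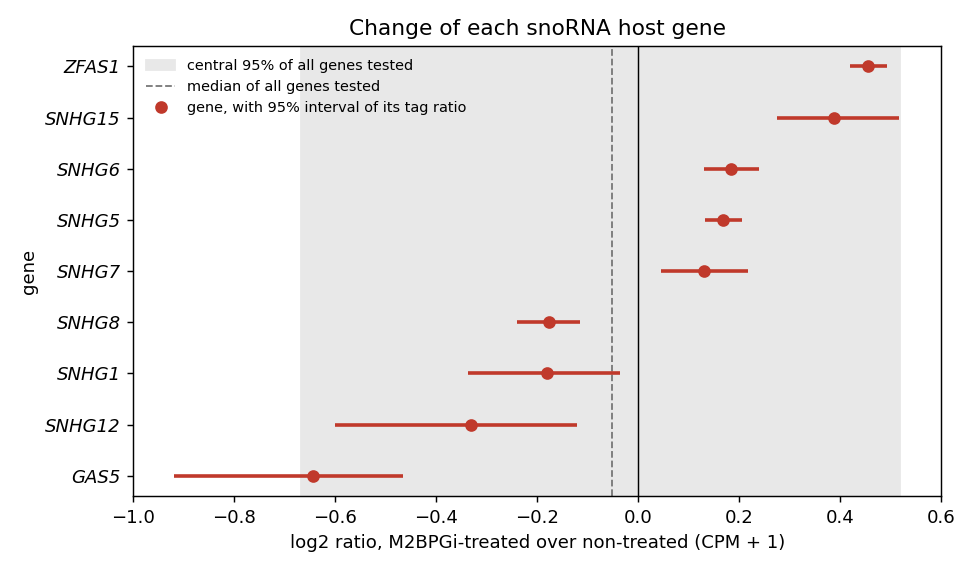
Log2 ratio of each snoRNA host gene, M2BPGi-treated over non-treated after adding 1 CPM (x axis), with the 95% interval of its tag ratio (line, counting error only). The grey band holds the central 95% of all genes tested and the dashed line is their median of -0.05; 5 genes lie to the right of 0 and 4 to the left.

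The summed level of the 9 genes was 1459.7 CPM in the non-treated and 1689 CPM in the M2BPGi-treated library, a log2 ratio of 0.21 (0.19 to 0.23). ZFAS1 and SNHG5 made up 60.2% of the sum without and 64.7% with M2BPGi. Together these genes had 879 CPM in the non-treated and 1093 CPM in the M2BPGi-treated library, a difference of 214 CPM out of 229 CPM for the whole group. The other 7 genes had 581 CPM in the non-treated and 596 CPM in the M2BPGi-treated library. The higher sum therefore came mainly from ZFAS1 and SNHG5.

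By class of snoRNA, with the mixed host SNHG12 counted as box H/ACA, 3 of the 5 box C/D hosts and 2 of the 4 box H/ACA hosts were higher in the M2BPGi-treated library. The summed level of the box C/D hosts was 1137 CPM in the non-treated and 1370.1 CPM in the M2BPGi-treated library. For the box H/ACA hosts the sums were 322 and 319 CPM. Both classes thus held genes of either direction, with median log2 ratios of 0.17 and -0.02. The direction of the box H/ACA hosts as a class depended on the scaling, since with the rescaled libraries their median was 0.03 and their sum in the M2BPGi-treated library 331 CPM.

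The directions were set beside those of genes of like level. Of the members, the 3 with a mean of 200 to 1000 CPM, ZFAS1, SNHG5 and SNHG6, were all higher with M2BPGi, as were 67.3% of 787 genes tested in that range, whose median log2 ratio was 0.13. Between 50 and 200 CPM, SNHG7 was higher and SNHG8 lower, and 53.2% of 2794 genes were higher. Between 10 and 50 CPM, SNHG15 was higher while GAS5, SNHG12 and SNHG1 were lower. Of 5775 genes in that range 39.1% were higher, with a median of -0.07. The central 95% of these genes ran from -0.60 to 0.48, and GAS5, at -0.64, lay below it. Every other member lay inside the central 95% of the genes in its own range. The part of the level in the members' directions was not tested.

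**Figure D3:**
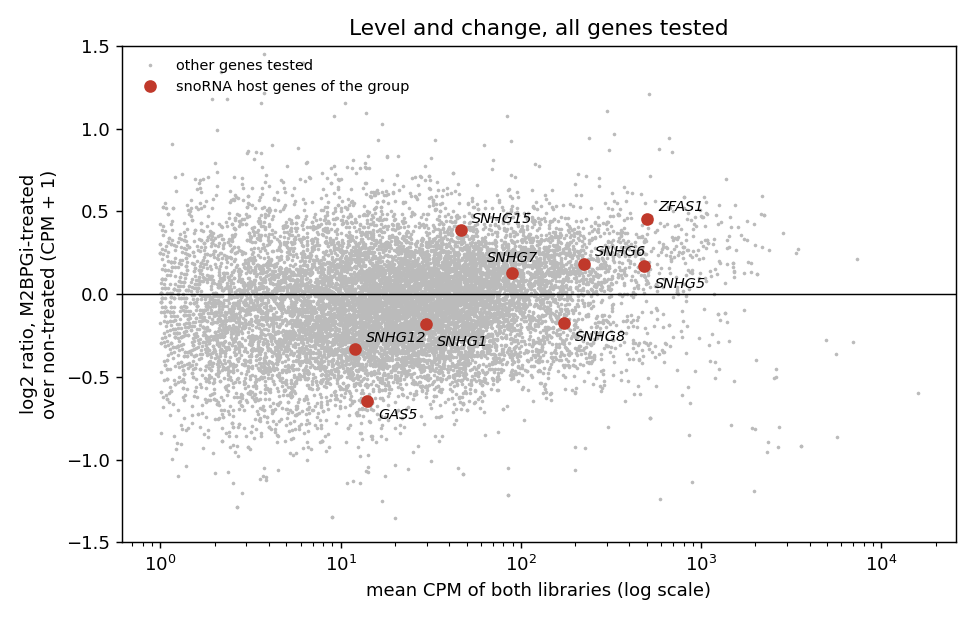
Mean CPM of both libraries (x axis, log scale) against log2 ratio, M2BPGi-treated over non-treated after adding 1 CPM (y axis), for the genes tested (grey) and the 9 snoRNA host genes (red). The axis ends at -1.5 and 1.5, beyond which 37 genes tested lie; the 3 hosts above 200 CPM are above 0, and 3 of the 4 hosts below 50 CPM are below 0.

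Transcript length and gene class were compared in the same way. The longest GENCODE transcript of the members ran from 648 nt for SNHG6 to 3116 nt for SNHG15, below the median of 3262 nt over the genes tested. Among the 5487 genes tested in this range of lengths the median log2 ratio was 0.0049 and 50.5% were higher. The members' median of 0.13 stood above this value, and also above the median of -0.18 for 1026 other noncoding RNA genes tested, of which 26.9% were higher. Restricted to 272 such genes with a mean of at least 10 CPM, the median was -0.09 and 40.4% were higher.

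The table also lists snoRNAs as genes of their own, and 19 of them lay inside 7 of the members on the same strand. For 4 of these, the listed levels were identical to those of the host in both libraries, namely SNORD74 in GAS5, SNORA16A in SNHG12, SNORA24 in SNHG8 and SNORD12C in ZFAS1. SNORD25, SNORD26, SNORD27 and SNORD28 had 31.5 and 27.7 CPM, within 1 tag of SNHG1. These 8 snoRNAs began 246 to 1190 bases from the annotated start of the host. SNORD50A and SNORD50B shared 190.01 CPM in the non-treated and 213 CPM in the M2BPGi-treated library, which was 41.8% and 41.7% of SNHG5. The share of SNHG5 that these entries held was hence nearly equal in both libraries.

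The 9 remaining snoRNA entries held at most 13.5% of the level of their host in either library. Among them, SNORD12 and SNORD12B in ZFAS1 each had 1.5 CPM without and 1.01 CPM with M2BPGi, and SNORD87 in SNHG6 had 2.16 and 2.05 CPM. SNORD22 and SNORD31, toward the 3′ end of SNHG1, each had 3.20 and 3.74 CPM. For the 8 entries that matched their host, the same tags were thus listed under host and snoRNA, and these levels are no separate measurement of the mature snoRNA, which lacks the cap of the host RNA. Distance alone did not separate the entries, since SNORD50B lay at 1074 bases in SNHG5 and SNORD28 at 1190 bases in SNHG1. Over the whole table, 30 of 144 snoRNA and small Cajal body RNA entries with a mean of at least 1 CPM repeated the strand and both levels of an entry of another kind.

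**Figure D4:**
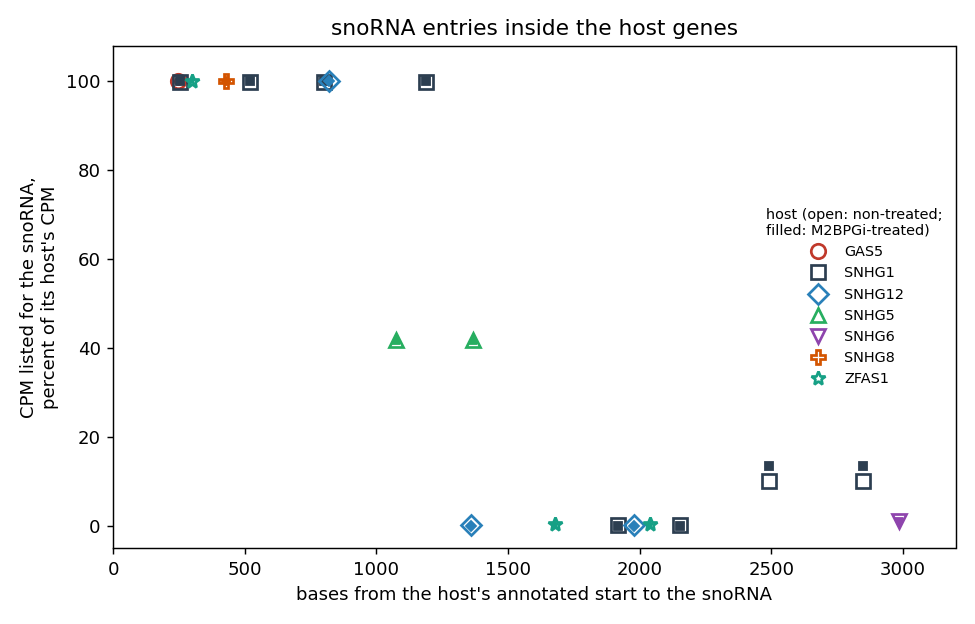
Level listed for each of the 19 snoRNAs inside the host genes, as percent of the host's CPM (y axis), against the distance in bases from the host's annotated start (x axis); open symbols are the non-treated and filled symbols the M2BPGi-treated library. The 8 snoRNAs at or near 100% lie within 1190 bases of the start, and SNORD50A and SNORD50B in SNHG5 lie near 42%.

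Of the members, 3 started within 1000 bases of a gene on the other strand. These distances run between the outermost GENCODE v29 starts of both genes, which can differ from the starts used for the sequences and the snoRNAs. SLC3A2, the heavy chain of several amino acid transporters, starts 188 bases from SNHG1 and had 164 CPM in the non-treated and 149 CPM in the M2BPGi-treated library, a log2 ratio of -0.14 (-0.20 to -0.07) beside -0.18 for SNHG1. ZNFX1, 248 bases from ZFAS1, had 31.9 and 30.45 CPM, a log2 ratio of -0.07 (-0.21 to 0.08) beside 0.46 for ZFAS1. ZBTB37, 800 bases from GAS5, had 2.41 and 1.65 CPM, a log2 ratio of -0.36 with an interval that included 0 (-1.16 to 0.05). SNHG1 and its neighbour therefore both lay below 0, whereas ZFAS1 was higher and the interval of its neighbour included 0.

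Near-identical copies could divide tags, since how tags with several matches were counted is not given in the sources used here. For 6 of the 9 members, the first 500 bases matched no other gene of GENCODE over at least 100 nt at 95% identity. SNHG7 matched the noncoding gene AC074183.1 over 397 nt and AC074183.2 over 350 nt, each at 96.0% identity, and its level is uncertain to that extent. Matches of SNHG5 and SNHG12 to other genes were 100 to 120 nt long.

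The list of other noncoding snoRNA hosts held 31 symbols, where a gene can stand under several names, as with SNHG32 and C6orf48. Against the 9 members, 18 of these hosts could be tested. Of these, 7 were higher, with a median log2 ratio of -0.04 (0.01 with the libraries rescaled to the median of the genes tested), and 2 were lower by 1.5-fold or more, whereas none was higher by that much. SNHG22, listed as SCARNA17 and the most abundant of them by the mean of both libraries, had 653 CPM in the non-treated and 389 CPM in the M2BPGi-treated library, a log2 ratio of -0.75. That label is the symbol of a small Cajal body RNA, and which RNA gave these tags could not be read without tag positions. SNHG29, listed as C17orf76-AS1, had 318 and 412.5 CPM (0.38) and was the most abundant with M2BPGi; it was named after its values were seen. SNHG9 had 15.6 and 9.01 CPM (-0.73), close to GAS5 in level and in log2 ratio. At the upper end, SNHG17, listed as RP4-564F22.2, had 46.1 and 67.7 CPM (0.55), and SNHG16 had 109 and 147 CPM (0.42), near ZFAS1 in log2 ratio. Both sets of hosts thus spread to either side of 0.

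The other noncoding hosts nearest to the members' median log2 ratio of 0.13 were CYTOR (LINC00152), SNHG30 (RP11-1094M14.11) and SNHG32 (C6orf48), by the difference in log2 ratio from the single pair of libraries. CYTOR had 9.86 CPM in the non-treated and 11.1 CPM in the M2BPGi-treated library (0.15). SNHG30 had 24.1 and 26.0 CPM (0.10), and SNHG32 had 95.05 and 114 CPM (0.26).

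Protein-coding snoRNA hosts had a median log2 ratio of 0.17, with 35 of 48 higher and none past 1.5-fold, close to the 0.13 of the 9 noncoding hosts. RPS12, a ribosomal protein gene and the most abundant of them, had 1873 CPM in the non-treated and 2614 CPM in the M2BPGi-treated library (0.48), and RPL3 (701 and 985 CPM, 0.49) and RPL10 (334 and 469 CPM, 0.49) were highest. These values were near the 0.46 of ZFAS1. TAF1D, a subunit of the RNA polymerase I factor SL1, had 86.2 and 60.6 CPM (-0.50), and EIF4G1, a translation initiation factor, had 254 and 189 CPM (-0.43). Many of these protein-coding hosts are ribosomal protein genes that are counted again in the next list, so the lists are not separate comparisons. Of the shared genes only RPS2 (-0.10) was lower. The protein-coding hosts outside that overlap ran from -0.50 (TAF1D) to 0.46 (IPO7), and their closeness to the noncoding hosts was not examined apart. Of 83 tested entries of cytosolic ribosomal protein genes, among which RPL26 stands under 2 identifiers, 78 were higher, with a median of 0.30, a level that among the 9 noncoding hosts only ZFAS1 and SNHG15 exceeded. RPS6 stood apart from these genes at 116 CPM in the non-treated and 892 CPM in the M2BPGi-treated library (2.93), followed by RPS14 at 1260.8 and 1832 CPM (0.54). RPL24 had 45.5 and 39.5 CPM (-0.20) and RPL29 162 and 148 CPM (-0.13), and the most abundant, RPS21, had 6758 and 7827 CPM (0.21).

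**Figure D5:**
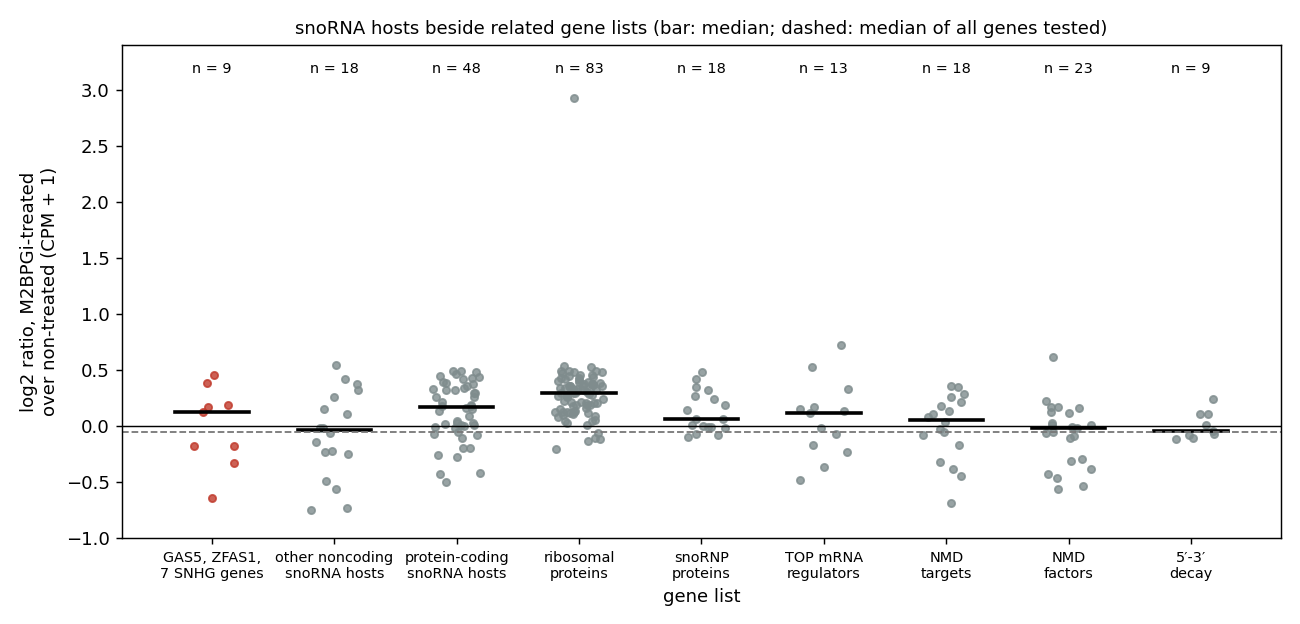
Log2 ratio, M2BPGi-treated over non-treated after adding 1 CPM (y axis), of the 9 host genes (red) and of related gene lists (grey); each point is a gene, bars are list medians and the dashed line is the median of all genes tested. The 9 hosts spread from -0.64 to 0.46 around a median of 0.13, and the single point near 3 is RPS6. A gene can stand in several of the grey lists.

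Genes of snoRNP core and assembly proteins were mostly near 0 or higher, with a median of 0.06 and 12 of 18 higher. NHP2, of the box H/ACA particle, had 345 and 408 CPM (0.24), NHP2L1 (SNU13), of the box C/D particle, 100.5 and 135 CPM (0.42), and ZNHIT6, an assembly factor, 14.0 and 19.99 CPM (0.49). NOP58 with 198 and 185 CPM (-0.10) and NOP56 with 67.9 and 64.2 CPM (-0.08), both of the box C/D particle, were lowest. The C/D hosts GAS5 and SNHG1 lay below both of them, and ZFAS1, SNHG5 and SNHG6 above.

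Genes that act on TOP RNAs or on the decay of host RNAs were split in direction, as the 9 hosts were. Of 13 regulators of TOP mRNAs, 7 were higher, with a median of 0.11. CNBP, which binds TOP sequences, had 157 and 259 CPM (0.72), and EIF4EBP1, the translational repressor 4E-BP1 controlled by mTOR, had 173 and 250 CPM (0.52). LARP4 had 109 and 78.1 CPM (-0.48), TIA1 60.6 and 46.8 CPM (-0.37), and HNRNPD, the most abundant by the mean of both libraries, 226 and 244 CPM (0.11), below CNBP and EIF4EBP1 in the M2BPGi-treated library. Their range from -0.48 to 0.72 covered all members except GAS5.

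Of 23 nonsense-mediated decay factors, 10 were higher, with a median of -0.02, and with the rescaled libraries 12 were higher, with a median of 0.03. CASC3, of the exon junction complex, had 12.1 and 19.1 CPM (0.62) and MAGOH, of the same complex, 98.7 and 115 CPM (0.22). UPF3B had 30.6 and 20.9 CPM (-0.53), the helicase DHX34 36.2 and 24.2 CPM (-0.56), and the release factor ETF1, the most abundant, 178 and 199.7 CPM (0.17). The interval lay above 0 for 6 factors and below 0 for 7. Besides UPF3B and DHX34, the latter were SMG5 (-0.47), SMG6 (-0.43), SMG1 (-0.38), UPF2 (-0.31) and UPF1 (-0.29), named after their values were seen. Among 18 mRNAs known as targets of this decay, 10 were higher, with a median of 0.06. The stress-response genes DDIT3 (90.3 and 116 CPM, 0.36) and ATF4 (243 and 310 CPM, 0.35) were highest, and GADD45B (32.8 and 23.8 CPM, -0.45) and TBL2 (73.2 and 45.0 CPM, -0.69) lowest. RBM39, the most abundant by the mean of both libraries, had 344 and 306 CPM (-0.17), the latter below ATF4. Targets and host RNAs therefore both held genes above and below 0, and TBL2 and GAS5 had nearly the same log2 ratio.

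For the 9 tested genes of 5′-3′ decay the median was -0.04, and 4 were higher (0.0082 and 5 with the rescaled libraries). PATL1 had 35.0 and 41.7 CPM (0.25), XRN1, the exonuclease of this pathway, 15.3 and 16.5 CPM (0.11), DCP1A 20.7 and 19.1 CPM (-0.11), EDC4 51.3 and 47.3 CPM (-0.12), and the most abundant, LSM1, 116 and 125 CPM (0.10). Their range was narrower than that of the host genes.

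Markers were read for the identity of the cells. All 15 hepatocyte markers were listed and tested, with a summed level of 5936 CPM in the non-treated and 5158 CPM in the M2BPGi-treated library. Of these, 5 were higher, with a median log2 ratio of -0.30. KRT18, the most abundant by the mean of both libraries, had 1249.8 and 1592 CPM (0.35), and FGG, the most abundant without treatment, had 1402 and 987 CPM (-0.51). FOXA2 had 12.8 and 18.4 CPM (0.49). FGB had 950.03 and 623 CPM (-0.61), SERPINA1 671 and 455 CPM (-0.56), and AFP 695 and 566 CPM (-0.30). ALB, at 8.82 and 7.04 CPM, and TTR, at 3.62 and 2.49 CPM, were low in both libraries. Of the 7 stellate cell and fibroblast markers, COL3A1, at 4.53 and 3.42 CPM, and COL1A1, at 0.67 and 0.76 CPM, were listed. The macrophage marker CSF1R and the leukocyte marker PTPRC were listed at 0 in both libraries, where the limit set for a count of 0 was 3 tags, or 0.125 and 0.121 CPM, and none of 4 endothelial markers was listed. The part of the lower hepatocyte markers in the levels of the host genes was not tested.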

How the data were processed

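Each library was a CAGE library of total RNA from PLC/PRF/5 cells, 1 per condition. The CPM values were deposited by the authors as the tags of each gene scaled to the total of the library, rounded to 2 decimals. Per the submitters' processing notes, tags were mapped to hg19 with BWA and HISAT2, whereas the study's methods name a mouse build; the identifiers belong to human genes. The rule that assigned tags to genes is not given in the sources used here. Every value above 0 was a whole number of tags within 0.005 CPM (100% in both libraries), and 22630317 tags of the non-treated and 23471991 of the M2BPGi-treated library fell on listed entries, where entries can share tags. These tags served for depth and intervals, not for count tests.

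Log2 ratios were taken after adding 1 CPM, which understates changes of low genes, for genes whose mean reached 1 CPM, with a threshold of 1.5-fold (Python packages numpy 2.4.6, pandas 2.3.3 and scipy 1.17.1; figures with matplotlib 3.10.9; copies with BLAST+ 2.17.0). Scripts were tested on simulated data. Genes were matched by symbol, otherwise by the Ensembl identifier of the present symbol. Named genes were all 9 members and, of each list, the 2 highest and 2 lowest log2 ratios among genes with a mean of at least 10 CPM, and its most abundant gene. The further snoRNA, marker and neighbour entries were named for their position or role, and other genes outside this rule after their values were seen. Ribosomal protein genes were restricted to protein-coding genes of GENCODE v29. The distance to a snoRNA was taken on GRCh38 from the RefSeq start of the host where a GENCODE transcript began within 50 bases of it, and otherwise from the start with most transcripts around it. The sequence at the start of 1 member is not reported here. The members and lists were chosen with earlier results of these data known. Alternatives were other pseudocounts, filters, scalings and fold thresholds.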

Additional observations from a re-analysis of the deposited data

How the results depend on the processing

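No paired analysis was possible because a single library stood for each condition. For the same reason leaving out a library was not an option. The TMM factors, the binomial test and the exact test with an assumed variation were planned but not run. Tags read back from the rounded CPM served for depth and intervals only. Rescaling by a trimmed mean, counting identical entries once, matching hosts by listed symbol only, and the settings for lists, classes of host and intervals were added after seeing the data.

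All 36 log2 ratios of single members under the 4 alternatives of pseudocount and scaling kept their sign, which was fixed in advance and is no check. A pseudocount added to both levels cannot change a sign, and the rescalings moved log2 ratios by less than the smallest in size, the 0.13 of SNHG7. Of the 36 values, 32 stayed within the half-width of their interval. The 4 that moved further were those of ZFAS1 and SNHG5 under both rescalings. The number of members higher with M2BPGi stayed at 5, since signs were fixed and no filter removed a member. The members' median log2 ratio, the value of SNHG7, ranged from 0.12 to 0.18. With either rescaling the interval of SNHG1 included 0, and 4 medians turned from below to above 0: those of the other noncoding hosts (-0.038 as reported, 0.013 and 0.014 with the trimmed mean), the box H/ACA hosts, the nonsense-mediated decay factors and the genes of 5′-3′ decay. The median of the other noncoding hosts was -0.016 both with a mean of at least 10 CPM and with no filter. The median over all genes tested, -0.052 as reported, was -0.057 with a pseudocount of 0.1 CPM, -0.038 with 5 CPM and -0.028 with a mean of at least 10 CPM. The members' summed log2 ratio of 0.21 became 0.26 after dividing the treated CPM by the median ratio of the genes tested, and 0.26 with the trimmed mean. These scalings moved the median over all genes tested from -0.05 to -0.0051 and -0.0047, with smaller shifts for low genes because of the added 1 CPM, and put 49.4% and 49.5% of the genes tested above 0, against 42.9% as deposited. Genes past 1.5-fold then numbered 292 higher and 441 lower, or 440 lower with the trimmed mean.

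The counts past a threshold depended on it. At the lower fold threshold tried, 2 members were higher and 2 lower, with 1240 genes tested higher and 2534 lower. At 2-fold, 0 members were lower, with 33 genes tested higher and 59 lower. With a pseudocount of 5 CPM, 0 members were at least 1.5-fold lower, with 91 genes tested higher and 164 lower, and with 0.1 CPM the genes numbered 337 higher and 857 lower. Genes with a mean of at least 10 CPM numbered 135 higher and 223 lower, since fewer genes (9464) were tested. The main counts were 219 higher and 555 lower. Depth limited GAS5 and SNHG12 most, at 267 and 262 tags in the M2BPGi-treated library.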
